A study of Mus musculus with 9 samples.

Results

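Interferon-stimulated genes and the genes that load and display peptides on MHC class I were followed across livers of mice with cisplatin injury. The set was a list of 49 genes named for their known roles and drawn up with earlier results of these data known: 4 transcription factors, the ISG15 modifier with its protease, 12 antiviral effectors, 9 other interferon-induced proteins, 5 guanylate-binding proteins, 5 immunity-related GTPases, 3 immunoproteasome subunits, 7 genes of class I loading and presentation and 2 chemokines. All 49 were found among the 57010 genes of the deposited count table, and all 49 were among the 13686 genes with enough reads to be tested. The RNA came from livers of male BALB/c mice and was sequenced as 9 libraries, 3 in each of 3 groups. The CON group had no treatment. The CPT group had acute liver injury from injected cisplatin, a platinum drug that crosslinks DNA and is abbreviated DDP in the submitters' design text. The AT3 group carries the same injury label as CPT, so both groups share the cisplatin. The labels do not spell AT3 out. The series title names atractylenolide III, a sesquiterpenoid lactone of Atractylodes plants, and asks about the ACT1-TRAF6 branch of IL-17 signalling to NF-κB. The sources used here give no dose, route or time. The labels do not say whether the 3 libraries of a group came from separate mice, so the tests weigh only the variation among these libraries, which may be technical.

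Interferons are secreted cytokines that signal through JAK kinases. Type I and type III interferons activate a complex that contains STAT2 and IRF9 and binds the interferon-stimulated response element (ISRE), whereas interferon gamma acts at gamma-activated sites (GAS). Their targets include antiviral effectors, GTPases that attack intracellular pathogens, chemokines that draw lymphocytes, and the machinery that cuts, transports and presents peptides on class I molecules. In the liver these genes can be expressed by hepatocytes as well as by Kupffer cells, sinusoidal endothelium and lymphocytes.

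The sequence just upstream of a gene was available for 37 of the 49 members (RefSeq, GRCm38.p6, the C57BL/6J reference and not BALB/c), as windows from 250 bases before to 50 bases after the annotated start. The ISRE-type letters GAAANNGAAA, read on both strands, were present in 16 of the 37 windows (43.2%) and in 1131 of all 32841 windows (3.44%). The GAS-type letters TTCNNNGAA, which read the same on both strands, were present in 9 of the 37 (24.3%) and in 2725 of all windows (8.3%). Matches of the same or of both kinds can overlap. A match describes letters and not a bound site, and a window without a match says only that these letters are not in it. The 12 members with no window in the table were Usp18, Mx1, Zbp1, Rtp4, Ifi27, Parp9, Parp14, Gbp6, Gbp9, Iigp1, Tap2 and Nlrc5. Shown here are the 100 bases from 120 to 21 bases before the start of 7 members that the results below turn on, 5′ to 3′ on the gene's strand, with matches to either motif in capitals. They are Irf1 at chr11:53769894-53769993 (plus strand), Isg15 at chr4:156200839-156200938 (minus), Ifit1 at chr19:34640769-34640868 (plus), Xaf1 at chr11:72301509-72301608 (plus), Gbp7 at chr3:142530216-142530315 (plus), Igtp at chr11:58199436-58199535 (plus) and Irgm2 at chr11:58214857-58214956 (plus).
Irf1: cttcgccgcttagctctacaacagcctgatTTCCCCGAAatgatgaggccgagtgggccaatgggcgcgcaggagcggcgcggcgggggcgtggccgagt
Isg15: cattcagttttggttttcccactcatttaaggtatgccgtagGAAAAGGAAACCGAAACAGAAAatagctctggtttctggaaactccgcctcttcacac
Ifit1: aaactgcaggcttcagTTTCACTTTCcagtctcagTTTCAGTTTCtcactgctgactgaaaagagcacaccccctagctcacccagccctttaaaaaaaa
Xaf1: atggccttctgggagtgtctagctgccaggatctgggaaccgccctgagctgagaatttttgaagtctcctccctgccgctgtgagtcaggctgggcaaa
Gbp7: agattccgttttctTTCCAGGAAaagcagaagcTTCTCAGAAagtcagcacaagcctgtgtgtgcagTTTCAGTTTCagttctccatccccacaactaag
Igtp: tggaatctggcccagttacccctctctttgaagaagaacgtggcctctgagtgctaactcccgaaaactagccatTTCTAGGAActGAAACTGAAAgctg
Irgm2: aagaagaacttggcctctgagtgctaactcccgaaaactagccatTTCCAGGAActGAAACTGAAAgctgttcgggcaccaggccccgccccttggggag
The stretch of Irf1 held a GAS-type match alone, that of Isg15 held 3 overlapping ISRE-type matches and that of Ifit1 held 2 separate ones on the other strand. In Gbp7, Igtp and Irgm2 both kinds of letters occurred together, and the Xaf1 stretch held neither. The Igtp and Irgm2 stretches were near copies: set at the same GAS-type match, 68 of their 70 shared positions were identical (97.1%). Of the members with a window, the ISRE-type letters were in 1 of the 8 that were higher in CPT than in CON, in 5 of the 11 that were lower and in 10 of the 18 that were not called.

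Library totals were 21485021 to 28480479 estimated counts, at which 3 counts amount to 0.0934 to 0.169 CPM (counts scaled to a common library size). The make-up of the libraries differed between groups: mitochondrially encoded genes took a share of the counts of 25.8 to 36.8% (CON), 11.2 to 16.3% (CPT) and 9.79 to 11.4% (AT3). Levels below are CPM scaled by the trimmed mean of M-values (TMM), given in the order of libraries 1, 2 and 3. Differences are log2 fold changes ± SE from edgeR's quasi-likelihood test on all 9 libraries, with p-values adjusted over the 13686 genes by the Benjamini-Hochberg method. A gene was called higher or lower at an adjusted p below 0.05. The deposited TPM (length-normalised transcript abundances) were used without TMM scaling. On them the median of all genes lay 0.29 above 0 for CPT against CON and 0.32 above 0 for AT3 against CON. Of the calls by TPM, 80.5% were higher in each, against 49.3% and 48.9% on the TMM scale. The cause of this difference between the scales was not tested. Directions against CON refer to the TMM scale unless TPM is named. On the TPM scale 13 members below 0 in CPT against CON were above 0 (Irf1, Irf7, Stat2, Rsad2, Bst2, Samd9l, Dtx3l, Trim25, Trim30a, Gbp7, Ifi47, B2m and H2-K1). In AT3 against CON 19 were (Irf1, Irf9, Isg15, Oasl1, Bst2, Xaf1, Ifi35, Dtx3l, Trim25, Gbp3, Irgm2, Ifi47, Psmb9, Psmb10, Tap2, B2m, H2-K1, Cxcl9 and Cxcl10), and in AT3 against CPT 7 members, none of them called, had the other sign (Ifit2, Mx1, Bst2, Ifi27, Parp9, Ifi47 and B2m).

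By role, all 3 immunoproteasome subunits and 4 of 7 class I genes were higher in CPT than in CON, whereas 6 of 12 antiviral effectors and 4 of 5 immunity-related GTPases were lower. No test compared these groups. Against CON, 13 of the 49 members were higher in CPT (26.5%) and 15 were lower (30.6%), while 21 were not called. Of all genes tested, 30.0% were higher and 30.8% lower, so the members' shares were close to the background. The members' median log2 fold change was -0.07, against -0.02 for all genes. That median was above 0 without CON 2 (0.06), CON 3 (0.02), CPT 1 (0.05) or CPT 3 (0.10), and was 0.33 on the TPM scale. On the TPM scale 23 members were higher and 5 lower (10.2%). Of all 13686 genes, 6631 were higher and 1604 lower (11.7%) on that scale, so the members' lower share was again close to the background. Of the members' calls above, 12 of the 13 higher were repeated, and of the 15 lower those of Ifit1, Mx1, Gbp6, Igtp and Irgm1 were. The other members called higher on that scale were Irf9, Isg15, Oas1a, Oasl1, Ifi35, Parp14, Dtx3l, Gbp3, Irgm2, Tap2 and Cxcl9.

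Between the injured groups the members differed mostly in 1 direction. In AT3 against CPT, 9 of 49 were lower (18.4%), where 2.22% of all genes were. None was higher by edgeR, at an unadjusted p below 0.05 or by DESeq2, with 2.46% of all genes higher. The log2 fold change was below 0 for 46 members and above 0 for 3, with a median of -0.32 against 0 for all genes. The 9 were Irf7, Isg15, Ifit1, Zbp1, Xaf1, Ifi35, Gbp7, Psmb9 and Cxcl9. Without AT3 1, AT3 2 or CPT 2 the count fell to 2, without AT3 3 to 3 and without CPT 1 to 5, and without CPT 3 it was 17. The share of all genes called lower moved as well. It was 0.6, 0.488 and 0.781% without AT3 1, AT3 2 and CPT 2. For the fits without AT3 3, CPT 1 and CPT 3 it was 0.811, 1.29 and 3.89%. Xaf1 and Psmb9 were called in every one of these 6 fits. By TPM, 0 members were called by limma-trend, where 0.117% of all genes were called lower. At an unadjusted p below 0.05, 10 members were lower and 0 higher on that scale.

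Against CON, 8 members were higher in AT3 (16.3%) and 23 were lower (46.9%), where 31.5% and 32.9% of all genes were. The median was -0.37, against -0.04 for all genes. The 8 higher members (Usp18, Zbp1, Ifi27, Parp9, Gbp2, Psmb8, Tap1 and H2-D1) were all among the 13 that were higher in CPT, a comparison that shares the CON libraries. On the TPM scale 14 members were higher and 7 lower (14.3%), where 7017 and 1698 (12.4%) of all 13686 genes were. The 7 (Ifit1, Rtp4, Ifi44, Gbp6, Igtp, Irgm1 and Iigp1) were also lower on the TMM scale.

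**Figure D1:**
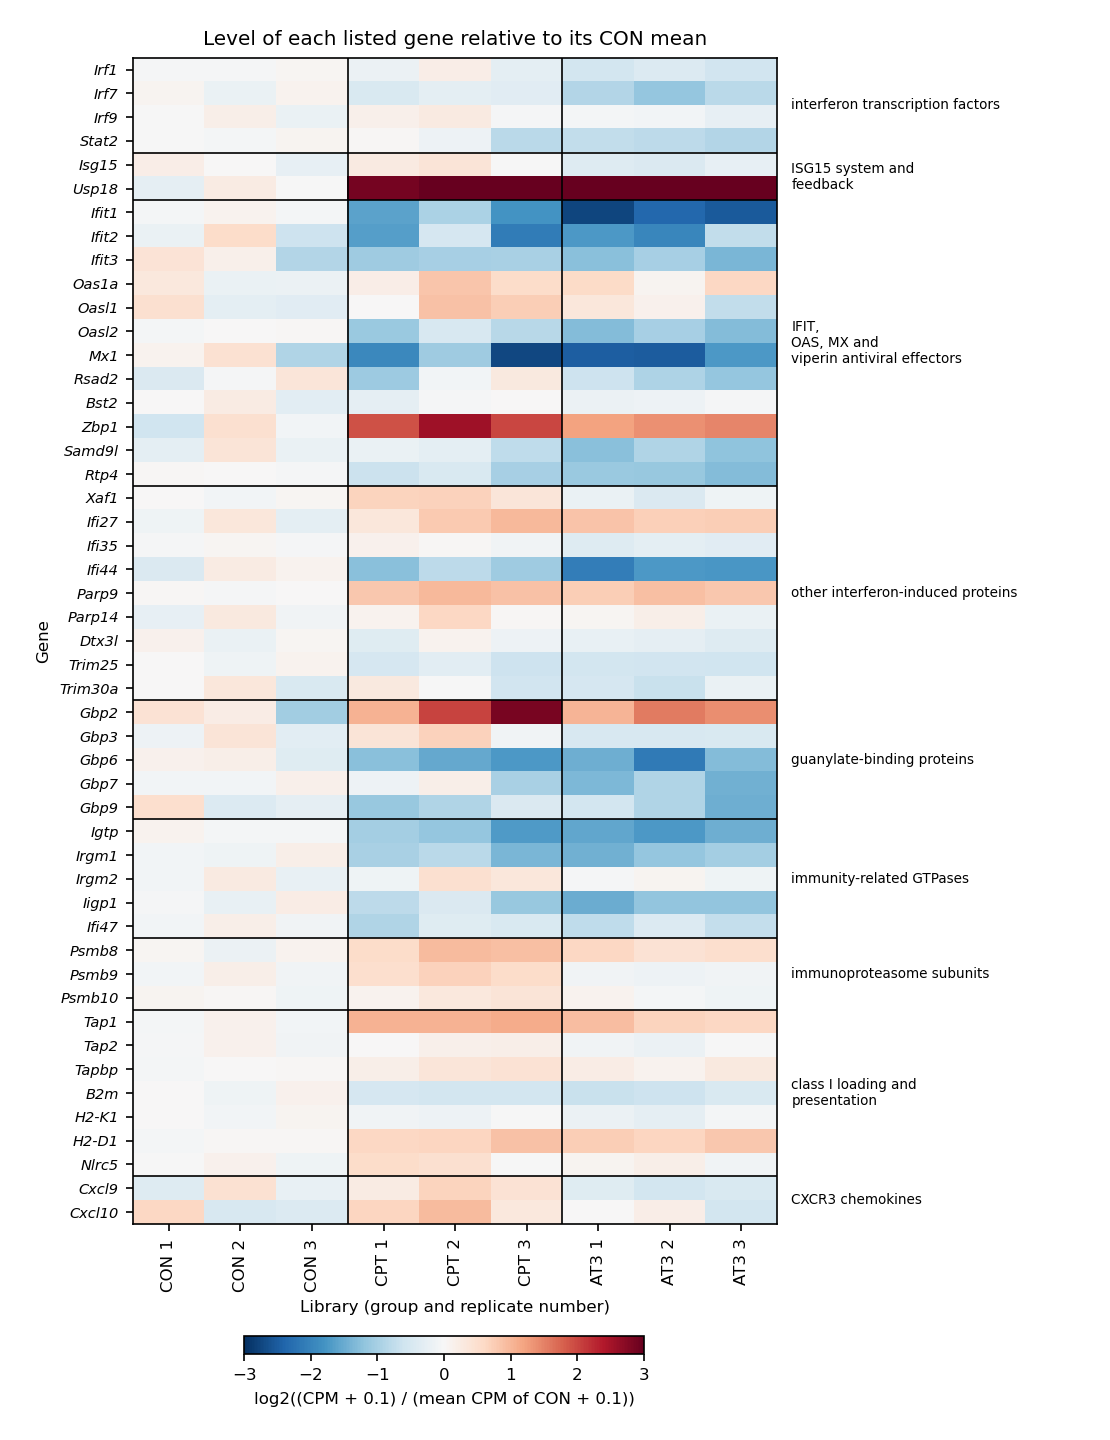
Level of each of the 49 members in each of the 9 libraries, as log2 of CPM + 0.1 over the CON mean + 0.1, grouped by role. Colours end at -3 and 3. Usp18 lies near or beyond the upper end in CPT and AT3, and the immunity-related GTPases other than Irgm2 are below CON in all 6 libraries of the injured groups.

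**Figure D2:**
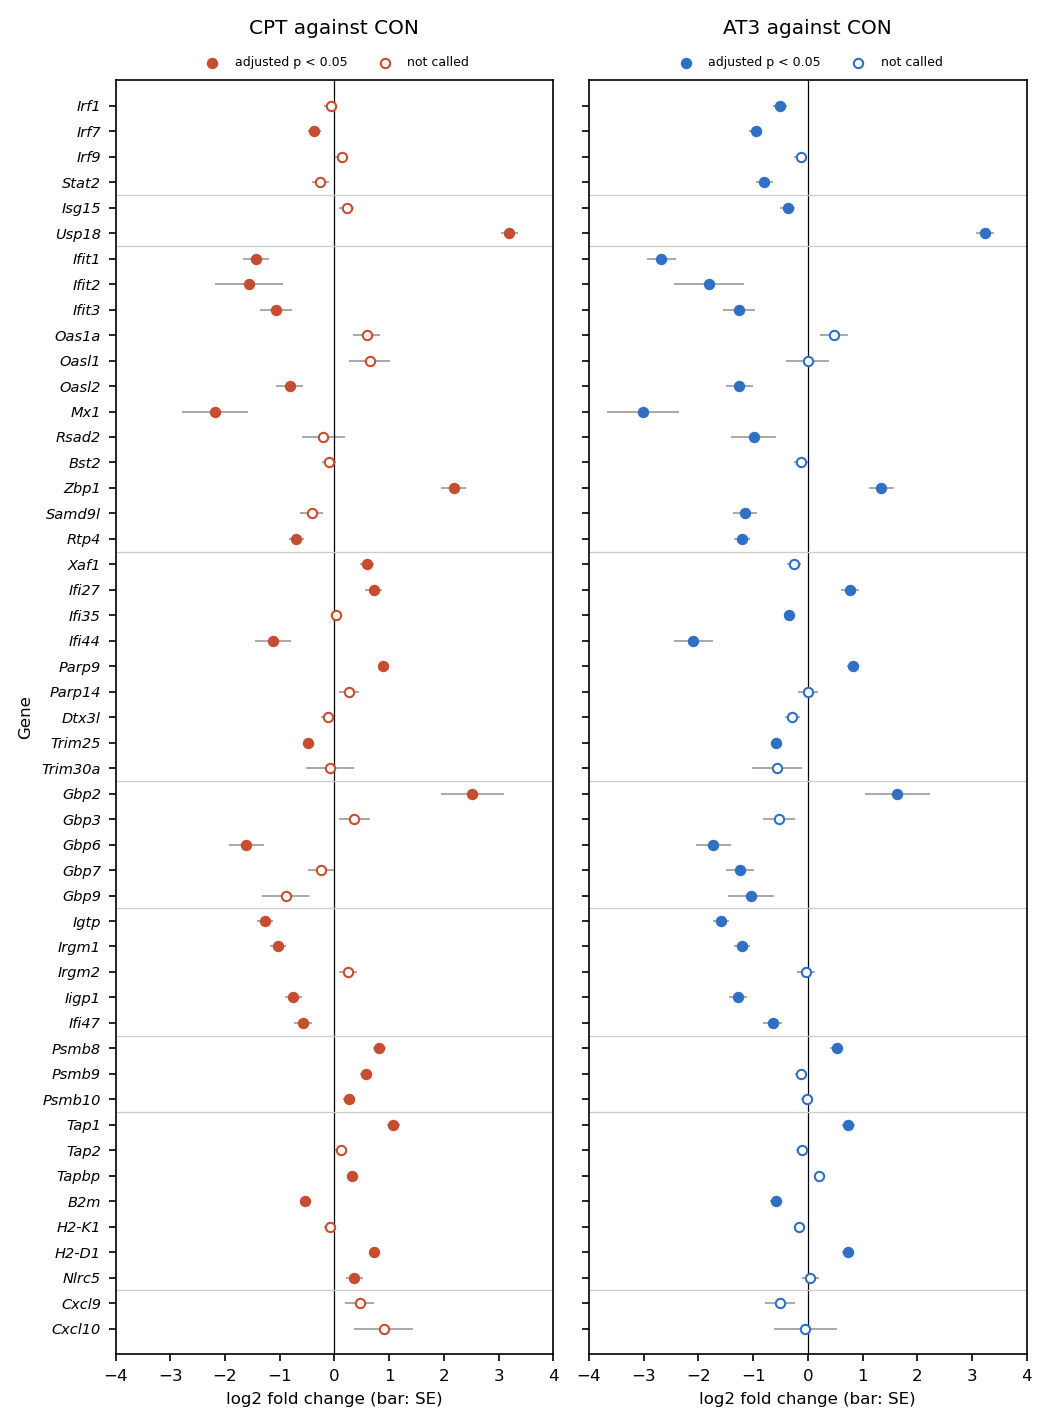
Log2 fold change with SE of each member in CPT against CON and in AT3 against CON, by role. Usp18 lies above 3 in both panels and Mx1 below -2, and the immunoproteasome subunits lie above 0 in CPT against CON.

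The summed levels of cell type markers moved between the groups as well. In bulk liver, fewer cells of a type and less RNA per cell cannot be told apart. Hepatocyte markers (8 of 15 higher and 3 lower in CPT than in CON) summed to 85763 to 91566 (CON), 82310 to 102062 (CPT) and 114241 to 122633 CPM (AT3). Sinusoidal endothelial markers, of which 11 of 13 were lower in CPT than in CON, summed, in the same order of groups, to 166 to 169, 31.1 to 40.2 and 34.6 to 46.2 CPM. Stellate cell markers (10 of 12 lower) summed to 373 to 444, 75.2 to 84.3 and 50.6 to 67.3 CPM, and Kupffer cell markers (7 of 12 lower, 1 higher) to 51.6 to 64.5, 26.6 to 33.1 and 31.4 to 37.4. Monocyte markers (6 of 9 higher, 1 lower) summed to 302 to 313, 981 to 1102 and 1056 to 1219 CPM, with Chil3 at 0 in CON. In AT3 against CPT, 6 of these 9 had log2 fold changes below 0 and 3 above, with a median of -0.32 and no call. The higher sum in AT3 was therefore not shared by most of the list. Neutrophil markers (6 of 7 higher) summed to 4.40 to 5.40, 25.3 to 53.0 and 13.8 to 14.4 CPM, and 3 of the 7 were lower in AT3 than in CPT. Ly6g was at 0 in CON, Camp in CPT and AT3, and Mpo in AT3. T cell markers were sparse (1 tested, lower), at 2.67 to 4.11, 0.848 to 1.18 and 1.02 to 1.25 CPM, with Cd8b1 at 0 in CPT and Cd8a at 0 in AT3. Cytotoxic cell markers (2 of 2 tested lower) summed to 2.51 to 2.76, 0.707 to 1.03 and 0.558 to 1.04 CPM, with Klrb1c at 0 in CON, Eomes in CPT and Xcl1 in AT3. B cell markers (3 of 3 tested lower) summed to 16.1 to 18.7, 4.73 to 7.35 and 3.18 to 5.34 CPM, with Pax5, Fcmr and Cr2 among those at 0 in CPT and Cr2 at 0 in AT3. Plasmacytoid dendritic cell markers, from a cell type known as a strong producer of type I interferon (of 2 tested, 1 higher and 1 lower in CPT than in CON), summed to 9.26 to 15.7, 5.54 to 7.96 and 3.74 to 5.08 CPM, with Runx2 at 0 in CON, Pacsin1 in CPT and Klk1 and Cox6a2 in AT3. Conventional dendritic cell markers (1 of 2 tested lower) summed to 1.52 to 3.85, 0.919 to 2.08 and 1.15 to 1.35 CPM, with Cd209a at 0 in CPT. Cholangiocyte markers (2 of 5 tested lower) summed to 15.8 to 21.6, 17.6 to 22.5 and 22.1 to 25.9 CPM, with Cftr at 0 throughout. The part of these shifts in the members' values was not tested.

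Transcripts of the interferons themselves were nearly undetected. Of 21 interferon genes on the list (alpha, beta, gamma, lambda and others), 20 had 0 counts in all 9 libraries, and Ifnk had 0.0328 CPM in AT3 1. None could be tested, and the amounts lay below what 3 counts give at this depth. Of 14 listed genes of receptor signalling and its feedback, 13 were tested: 6 were higher and 2 lower in CPT than in CON, 1 was lower in AT3 than in CPT, and 7 were higher and 3 lower in AT3 than in CON. The type I receptor chains were not called, with CPT against CON values of 0.10 for Ifnar1 and -0.09 for Ifnar2. For the interferon gamma receptor, Ifngr1 was 0.49 higher on the log2 scale in CPT than in CON (edgeR adjusted p = 0.00600) and Ifngr2 stood at 0.31 without a call. In AT3 against CON both Ifngr1 (0.94) and Ifngr2 (0.64) were higher. Jak1, a kinase of all these receptors, was 0.75 ± 0.10 higher in CPT (edgeR adjusted p = 1.25e-05).

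Socs3, a feedback inhibitor induced by STAT3 and other STATs, showed the largest log2 fold change of that list. Its level was 3.93, 3.38 and 7.09 CPM in CON, 67.8, 76.9 and 55.9 in CPT and 34.5, 43.1 and 37.3 in AT3. The 3 groups did not overlap, and AT3 lay between the others. Socs3 was 14.2-fold higher in CPT than in CON (3.83 ± 0.21, edgeR adjusted p = 5.37e-10) and 1.75-fold lower in AT3 than in CPT (-0.80 ± 0.17, edgeR adjusted p = 0.0158). The phosphatases Ptpn6 (1.09) and Ptpn2 (1.24), which dephosphorylate JAK-STAT components, were also higher in CPT than in CON on the log2 scale. Of 18 listed names of nucleic acid sensors and adaptors, 12 were tested. The names Ddx58 (RIG-I), Mb21d1 and Tmem173 were absent from the gene annotation, so nothing was looked up under them. Mb21d1 and Tmem173 are older names of Cgas and Sting1, which were listed too. Of the 12 tested, 4 were higher and 1 lower in CPT than in CON and 4 were higher and 3 lower in AT3 than in CON. The kinase Ikbke, which phosphorylates IRF3 and IRF7, was 1.68 higher in CPT than in CON on the log2 scale, and the adaptors Ticam1, Mavs and Myd88 were 1.25, 1.08 and 0.92 higher. Between AT3 and CPT, Mavs stood at 0.60 (edgeR adjusted p = 0.0548) and Ikbke at -0.42 (edgeR adjusted p = 0.0599).

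Of the 4 transcription factors that carry the response, 1 was lower in CPT than in CON, 1 was lower in AT3 than in CPT, and 3 were lower in AT3 than in CON. Irf7, the factor that amplifies type I interferon production, had 26.5, 21.9 and 26.9 CPM in CON, 18.2, 20.3 and 19.6 in CPT and 13.5, 11.2 and 14.3 in AT3. All AT3 libraries lay below all CPT libraries, and those below CON. Irf7 was lower by 0.37 on the log2 scale in CPT than in CON (log2 fold change -0.37 ± 0.11, edgeR adjusted p = 0.0116) and lower again in AT3 than in CPT (-0.58 ± 0.12, edgeR adjusted p = 0.0116), and the AT3 against CON value was -0.95 ± 0.12. The first call was lost without CON 1, CON 3 or CPT 1 (adjusted p 0.0556, 0.0540 and 0.0823) and with no filter on low counts (0.0634), and on the TPM scale its sign was positive (0.24). The second was lost without CPT 2, AT3 1 or AT3 2 (0.0553, 0.050004 and 0.0761).

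Stat2, the partner of IRF9, had 53.8, 51.5 and 56.9 CPM in CON, 55.7, 48.9 and 30.9 in CPT and 32.5, 31.4 and 29.6 in AT3. CPT 3 lay within the AT3 range, and the other CPT libraries lay near CON. Stat2 stood at -0.26 in CPT against CON and was called lower there without CPT 1 (adjusted p 0.0394). It was not called in AT3 against CPT (-0.54, edgeR adjusted p = 0.0607), was called lower by edgeR without CPT 3 (-0.74, adjusted p = 0.000350) and by DESeq2 on all libraries (adjusted p = 0.0246), and was lower in AT3 than in CON (-0.79 ± 0.16, edgeR adjusted p = 0.000356). Irf1, an interferon gamma target and a factor in its own right, was lower in AT3 than in CON (-0.51 ± 0.13, edgeR adjusted p = 0.00259), with a TPM value of opposite sign (0.13). Its values were -0.07 for CPT against CON and -0.44 for AT3 against CPT (edgeR adjusted p = 0.0594), neither called. Irf9 was called in no comparison, at 0.13, -0.27 and -0.13 in the same order.

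Isg15 and Usp18 act at opposite ends of ISG15 conjugation. Usp18 encodes the protease that removes ISG15 and also blocks signalling at IFNAR2. Its level was 1.91, 2.79 and 2.31 CPM in CON, 17.7, 25.4 and 22.4 in CPT and 22.9, 23.3 and 20.99 in AT3. The 6 libraries of the injured groups were all above CON and overlapped each other. Usp18 was 9.19-fold higher in CPT than in CON (3.20 ± 0.16, edgeR adjusted p = 2.92e-10), the largest increase of the 49, and 9.43-fold higher in AT3 than in CON (3.24 ± 0.16, edgeR adjusted p = 2.12e-10). Between AT3 and CPT it stood at 0.04 ± 0.13.

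Isg15, the ubiquitin-like modifier itself, had 13.6, 11.9 and 9.91 CPM in CON, 14.3, 15.4 and 11.6 in CPT and 8.92, 8.65 and 9.89 in AT3. CON and CPT overlapped, and AT3 lay below CPT. It was not called in CPT against CON (0.23, edgeR adjusted p = 0.157), but was called higher without CPT 3 (0.0315) and on the TPM scale (0.80, limma adjusted p = 0.00235). It was 1.51-fold lower in AT3 than in CPT (-0.59 ± 0.13, edgeR adjusted p = 0.0206), a call lost without any 1 CPT or AT3 library other than CPT 3 (adjusted p 0.0538 to 0.102). In AT3 against CON it was -0.37 ± 0.14 (edgeR adjusted p = 0.0284), which was lost without CON 1, CON 2, AT3 1 or AT3 2 (0.0632 to 0.155), by DESeq2 (0.0983), and had the opposite sign on the TPM scale (0.33).

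Of the 12 antiviral effectors, 1 was higher (Zbp1) and 6 were lower in CPT than in CON. Between AT3 and CPT, 2 were lower and all 12 had log2 fold changes below 0. AT3 against CON gave 1 higher and 8 lower. Ifit1, which binds viral RNA that lacks the cap modification of host mRNA, had 4.83, 5.42 and 4.84 CPM in CON, 1.59, 2.55 and 1.38 in CPT and 0.656, 0.909 and 0.788 in AT3. The groups formed 3 steps without overlap. Ifit1 was 2.71-fold lower in CPT than in CON (-1.44 ± 0.24, edgeR adjusted p = 8.35e-05), 2.36-fold lower in AT3 than in CPT (-1.24 ± 0.27, edgeR adjusted p = 0.0177) and 6.39-fold lower in AT3 than in CON (-2.67 ± 0.26, edgeR adjusted p = 2.86e-07). The AT3 against CPT call was lost without CPT 2, AT3 1, AT3 2 or AT3 3 (adjusted p 0.0533 to 0.0978).

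Its neighbours on chromosome 19 moved the same way against CON. Ifit3 was lower in CPT (-1.07 ± 0.29, edgeR adjusted p = 0.00502) and in AT3 (-1.26 ± 0.29, edgeR adjusted p = 0.00149), with a near-identical copy, Ifit3b, that may share its reads. Ifit2, at 0.394 to 1.02 CPM in CON and 0.0769 to 0.436 in CPT, stood at -1.56 ± 0.62 in CPT (edgeR adjusted p = 0.0396) and -1.81 ± 0.63 in AT3 (edgeR adjusted p = 0.0206). The CPT call was lost without CON 1, CON 2, CPT 1 or CPT 3 (0.0620 to 0.234), and that of AT3 without CON 2, AT3 1 or AT3 2 (0.0857 to 0.148). DESeq2 called neither (0.0998 and 0.0603). Neither gene was called in AT3 against CPT (-0.19 for Ifit3 and -0.25 for Ifit2).

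Zbp1, the 1 antiviral effector that was higher than in CON, encodes a sensor of Z-form nucleic acid that can trigger necroptosis. Zbp1 had 1.57, 3.42 and 2.31 CPM in CON, 9.40, 14.5 and 9.996 in CPT and 5.77, 6.49 and 6.84 in AT3. AT3 lay between the other groups without overlap. It was 4.52-fold higher in CPT than in CON (2.18 ± 0.23, edgeR adjusted p = 7.09e-07), 1.78-fold lower in AT3 than in CPT (-0.83 ± 0.19, edgeR adjusted p = 0.0252) and 2.54-fold higher in AT3 than in CON (1.34 ± 0.23, edgeR adjusted p = 0.000114). The AT3 against CPT call was lost without CPT 2, AT3 1, AT3 2 or AT3 3 (0.0751 to 0.143).

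Mx1, a GTPase known to be defective in most inbred mouse strains, BALB/c included, was rare. It had 0.899, 1.18 and 0.394 CPM in CON, 0.141, 0.342 and 0.0384 in CPT and 0.0656, 0.0627 and 0.179 in AT3. Several of these lie at or near what 3 counts give, and all 6 libraries of the injured groups were below CON. The fitted values were -2.18 ± 0.61 in CPT (edgeR adjusted p = 0.00579) and -3.01 ± 0.66 in AT3 (edgeR adjusted p = 0.000954) against CON, and -0.83 without a call in AT3 against CPT. By TPM the AT3 libraries (0.19, 0.19 and 0.40) overlapped CON (0.20, 0.58 and 0.37). The AT3 against CON value on that scale was -0.13 without a call (limma adjusted p = 0.285).

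Rtp4, an interferon-induced chaperone, was lower in CPT (-0.69 ± 0.14, edgeR adjusted p = 0.000548) and in AT3 (-1.20 ± 0.15, edgeR adjusted p = 3.05e-06) than in CON. Oasl2, of the 2′-5′-oligoadenylate synthetase family, was also lower in both (-0.82 ± 0.24 in CPT and -1.25 ± 0.25 in AT3), and without CPT 1 the first call was lost (adjusted p 0.0545). Samd9l, an inhibitor of translation and viral replication, was lower in AT3 against CON alone (-1.16 ± 0.22, edgeR adjusted p = 0.000259), at -0.42 in CPT against CON. Rsad2, which encodes viperin, was called lower in AT3 against CON at -0.99 ± 0.41 (edgeR adjusted p = 0.0468) and not without CON 2, CON 3 or any 1 AT3 library (0.0558 to 0.170), nor by DESeq2 (0.0968). In AT3 against CPT these 4 stood at -0.51 (Rtp4), -0.44 (Oasl2), -0.74 (Samd9l) and -0.78 (Rsad2), none called.

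Oas1a, Oasl1 and Bst2 were called in no comparison. For CPT against CON their values were 0.59 (Oas1a, edgeR adjusted p = 0.0542), 0.65 (Oasl1) and -0.10 (Bst2, the tetherin that holds virions at the membrane). Oas1a was called higher without CON 1 or CPT 1 (adjusted p 0.0257 and 0.0147), and Oasl1 without CPT 1 (0.0497). In AT3 against CON, Oas1a stood at 0.48 and was called higher without CON 1 or AT3 2 (0.0455 and 0.0444). Bst2 was at -0.13 there and had the opposite sign on the TPM scale (0.59).

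The 9 other interferon-induced proteins split 3 higher and 2 lower in CPT against CON, with 2 lower in AT3 against CPT and 2 higher and 3 lower in AT3 against CON. Xaf1, a pro-apoptotic antagonist of the caspase inhibitor XIAP, had 9.95, 9.38 and 10.4 CPM in CON, 15.8, 16.1 and 12.8 in CPT and 8.60, 7.27 and 9.03 in AT3. Every CPT library lay above CON and every AT3 library below it. Xaf1 was 1.51-fold higher in CPT than in CON (0.59 ± 0.12, edgeR adjusted p = 0.000639) and 1.80-fold lower in AT3 than in CPT (-0.85 ± 0.12, edgeR adjusted p = 0.00167). In AT3 against CON it stood at -0.25 (edgeR adjusted p = 0.0920), with the opposite sign on the TPM scale (0.58).

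Parp9, an ADP-ribosyltransferase that works with the ubiquitin ligase Dtx3l, had CPM of 8.24 to 8.66 (CON), 14.9 to 16.6 (CPT) and 14.2 to 15.8 (AT3). It was higher in both injured groups (0.89 ± 0.10 and 0.83 ± 0.10, edgeR adjusted p = 2.05e-06 and 3.83e-06), which overlapped each other. Dtx3l, whose annotated start overlaps that of Parp9 on the opposite strand, was not called, at -0.12, -0.16 and -0.28 in the 3 comparisons, and was called higher in CPT against CON on the TPM scale (0.33). Without CON 2 it was called lower in AT3 than in CON (adjusted p 0.0292). The files do not state whether counting used strand, so reads in such overlaps cannot be assigned between the genes. This limit also holds for Rtp4, whose annotated span overlaps Masp1 on the opposite strand, and for Gbp9, which overlaps Gbp4 and Gbp8 on its own strand. The spans of Irf1, Irf7, Irf9, Gbp6, Ifi47, Tapbp, B2m and Cxcl10 overlap another protein-coding gene as well. Ifi27, a mitochondrial membrane protein, was higher in CPT (0.72 ± 0.16) and AT3 (0.77 ± 0.16) than in CON.

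Ifi35 had 30.9, 33.4 and 31.2 CPM in CON, 34.8, 32.8 and 29.6 in CPT and 24.3, 26.0 and 25.1 in AT3. AT3 lay below both other groups. It stood at 0.02 in CPT against CON and was lower in AT3 than in CPT (-0.37 ± 0.09, edgeR adjusted p = 0.0345), a call lost without any 1 CPT or AT3 library other than CPT 3 (0.104 to 0.169). Its AT3 against CON value was -0.34 ± 0.09, not called with no filter on low counts (0.0794) and with the opposite sign on the TPM scale (0.27). Ifi44 was lower in CPT (-1.12 ± 0.33) and in AT3 (-2.10 ± 0.36) than in CON. Trim25, a ubiquitin ligase that activates the RNA sensor RIG-I, was lower in both as well (-0.48 ± 0.10 and -0.58 ± 0.10), but its TPM values had the opposite sign (0.10 and 0.09). Parp14 (0.27, -0.26 and 0.01) and Trim30a (-0.09, -0.48 and -0.57) were called in no comparison.

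Guanylate-binding proteins and immunity-related GTPases are families of GTPases that act on the vacuoles of intracellular pathogens. Of the 5 guanylate-binding proteins, 1 was higher and 1 lower in CPT against CON, 1 was lower in AT3 against CPT, and 1 was higher and 3 lower in AT3 against CON. Gbp2 had 0.337, 0.275 and 0.0563 CPM in CON, 0.565, 1.21 and 2.23 in CPT and 0.558, 0.846 and 0.752 in AT3. All 6 libraries of the injured groups exceeded CON, with CPT spread over the wider range. Gbp2 was 5.74-fold higher in CPT than in CON (2.52 ± 0.57, edgeR adjusted p = 0.00136). In AT3 against CON it was 1.64 ± 0.60 (edgeR adjusted p = 0.0258), lost without CON 3, AT3 2 or AT3 3 (0.0971, 0.0685 and 0.0520).

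Gbp7, the member whose upstream stretch held both motifs and 2 GAS-type matches, had 4.50, 4.47 and 5.24 CPM in CON, 4.24, 5.32 and 2.38 in CPT and 1.80, 2.48 and 1.68 in AT3. CPT 3 fell in the AT3 range, so CPT and AT3 overlapped. It was lower in AT3 than in CPT (-1.01 ± 0.25, edgeR adjusted p = 0.0348), lost without any 1 CPT or AT3 library other than CPT 3 (0.0598 to 0.177) or with only the 6 libraries compared (0.0569), and lower in AT3 than in CON (-1.24 ± 0.26, edgeR adjusted p = 0.000581). Gbp6, with the near-identical Gbp10, was lower in CPT (-1.61 ± 0.32, edgeR adjusted p = 0.000460) and AT3 (-1.73 ± 0.32, edgeR adjusted p = 0.000230) than in CON. Gbp9 was called lower in AT3 against CON at -1.04 ± 0.43 (edgeR adjusted p = 0.0444), and not without CON 1, CON 3, AT3 2 or AT3 3 (0.0522 to 0.231), nor by DESeq2 (0.106). Gbp3 was called in no comparison, at 0.36, -0.89 and -0.53.

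Of the immunity-related GTPases, 4 of 5 were lower and none higher in CPT against CON, and the same counts held in AT3 against CON. Igtp, also known as Irgm3, a regulator of the effector GTPases, had 25.1, 22.1 and 22.2 CPM in CON, 11.3, 10.3 and 7.07 in CPT and 7.74, 6.99 and 8.38 in AT3. All 6 libraries of the injured groups lay below CON, with CPT 3 within the AT3 range. Igtp was 2.41-fold lower in CPT (-1.27 ± 0.14, edgeR adjusted p = 1.92e-06) and lower still in AT3 (-1.59 ± 0.15, edgeR adjusted p = 1.62e-07) than in CON. Irgm1, a regulator linked to autophagy, had 25.9, 25.04 and 31.0 CPM in CON, 13.9, 15.6 and 10.6 in CPT and 10.04 to 13.4 in AT3, again without overlap with CON. It was lower in CPT (-1.03 ± 0.14, edgeR adjusted p = 1.64e-05) and in AT3 (-1.21 ± 0.14, edgeR adjusted p = 2.75e-06).

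Iigp1, the effector Irga6, was the most abundant of the family in CPM, with 148, 129 and 177 CPM in CON, 88.4, 112 and 68.9 in CPT and 53.7, 66.4 and 67.0 in AT3. The groups did not overlap. It was lower in CPT (-0.75 ± 0.16, edgeR adjusted p = 0.000711) and in AT3 (-1.28 ± 0.16, edgeR adjusted p = 4.25e-06) than in CON. In AT3 against CPT it was not called (-0.53, edgeR adjusted p = 0.0693), but was called lower without CPT 3 (adjusted p 0.00685) and by DESeq2 (0.0283). Ifi47 was lower in CPT (-0.57 ± 0.17, edgeR adjusted p = 0.00919) and AT3 (-0.64 ± 0.17, edgeR adjusted p = 0.00399) than in CON, with TPM values above 0 (0.01 and 0.11). The CPT call was lost without CON 2 or CPT 1 (0.0515 and 0.0739).

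Irgm2 had 9.33, 11.9 and 8.50 CPM in CON, 9.08, 13.8 and 12.6 in CPT and 9.61, 10.5 and 9.06 in AT3. The 3 groups overlapped, and Irgm2 was called in no comparison (0.25, -0.29 and -0.04, the last with the opposite sign on the TPM scale, 0.47). Without CON 2 or CPT 1 it was called higher in CPT than in CON (adjusted p 0.0482 and 0.0108). The same pair of GAS-type and ISRE-type letters lies before the RefSeq starts of Igtp and Irgm2, and the difference between their responses was not tested. GENCODE M21 places Irgm2 at 58199618 to 58222782 on chromosome 11. The printed Irgm2 stretch (58214857 to 58214956) therefore lies inside the GENCODE span of the gene. The GENCODE spans of Igtp and Irgm2 overlap on the same strand, so reads in the shared part may have been assigned to either.

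**Figure D3:**
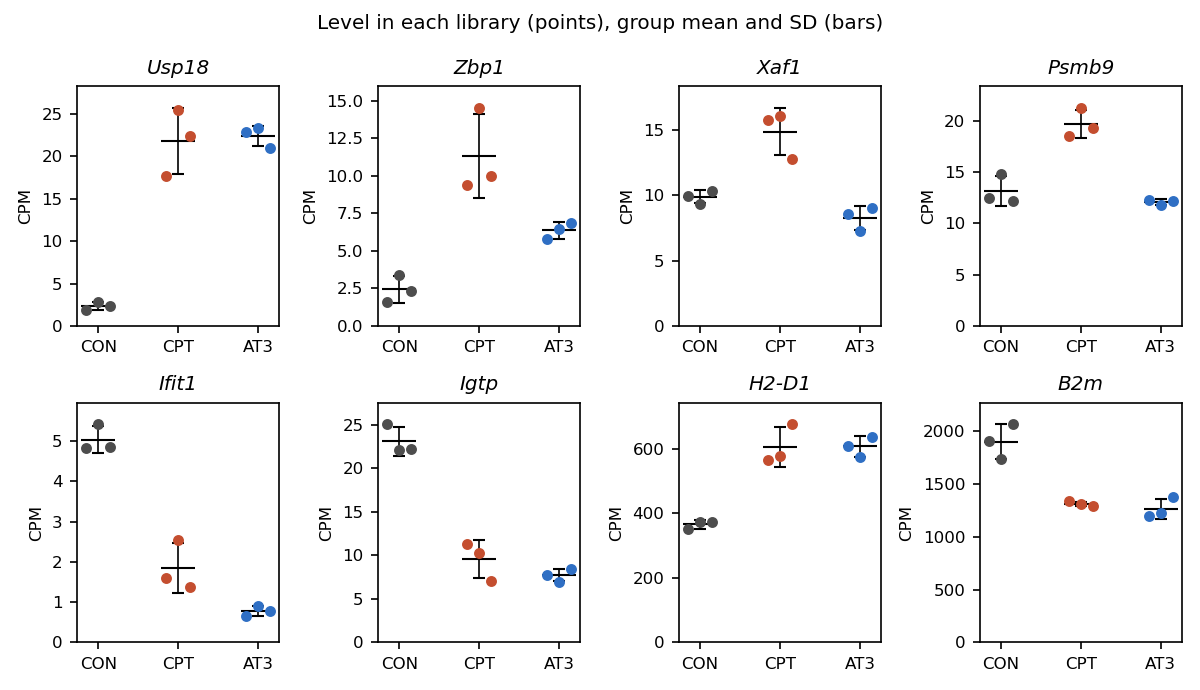
CPM of 8 members in each library (points), with the group mean and SD. Usp18 is high in all 6 libraries of the injured groups, Zbp1 and Ifit1 form 3 separate steps, Xaf1 and Psmb9 are higher in CPT than in both other groups, and Igtp and B2m are below CON in CPT and AT3.

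All 3 immunoproteasome subunits were higher in CPT than in CON, 1 was lower in AT3 than in CPT and 1 was higher in AT3 than in CON. The immunoproteasome replaces the catalytic subunits of the standard proteasome and alters which peptides are cut. Psmb8 had 24.5, 20.8 and 25.6 CPM in CON, 34.9, 46.0 and 44.1 in CPT and 36.5, 32.1 and 33.5 in AT3. All injured libraries lay above CON, and CPT and AT3 overlapped. It was 1.77-fold higher in CPT than in CON (0.82 ± 0.12, edgeR adjusted p = 2.21e-05) and higher in AT3 than in CON (0.53 ± 0.12, edgeR adjusted p = 0.00105). The AT3 against CPT value was -0.29 (edgeR adjusted p = 0.159).

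Psmb9 had 12.5, 14.8 and 12.2 CPM in CON, 18.6, 21.3 and 19.3 in CPT and 12.3, 11.8 and 12.2 in AT3. CPT stood apart from both other groups, which overlapped. Psmb9 was 1.49-fold higher in CPT than in CON (0.58 ± 0.11, edgeR adjusted p = 0.000232) and 1.63-fold lower in AT3 than in CPT (-0.70 ± 0.10, edgeR adjusted p = 0.00199). For AT3 against CON it stood at -0.13 (edgeR adjusted p = 0.311). Psmb10 was called higher in CPT at 0.27 ± 0.11 (edgeR adjusted p = 0.0426), a call lost without any 1 CON library, CPT 2 or CPT 3 (0.0521 to 0.132) and with only the 6 libraries compared (0.0626). Its values were -0.29 in AT3 against CPT and -0.02 in AT3 against CON.

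Psmb9 lies next to Tap1 on chromosome 17 (GRCm38, GENCODE M21): Psmb9 at 34181987 to 34187764 on the minus strand and Tap1 at 34187553 to 34197225 on the plus strand, sharing 212 bases. Tap1, a subunit of the transporter that moves peptides into the endoplasmic reticulum, had 6.63, 7.54 and 6.53 CPM in CON, 14.4, 14.4 and 15.03 in CPT and 13.1, 11.1 and 10.6 in AT3. The groups did not overlap, with AT3 between the others. Tap1 was 2.11-fold higher in CPT (1.08 ± 0.12, edgeR adjusted p = 1.28e-06) and higher in AT3 (0.74 ± 0.12, edgeR adjusted p = 5.29e-05) than in CON. Its AT3 against CPT difference was not called (-0.33, edgeR adjusted p = 0.0973).

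Each immunoproteasome subunit was also set against the standard subunit it replaces, as the log2 ratio of their TPM, which does not depend on library scaling. Psmb8 over Psmb5 was -2.21 ± 0.13 (SD, n = 3) in CON, -0.64 ± 0.19 in CPT and -0.62 ± 0.10 in AT3. Both injured groups lay above CON without overlap. Psmb9 over Psmb6 was -4.34 ± 0.16, -4.12 ± 0.08 and -4.64 ± 0.07, lowest in AT3. Psmb10 over Psmb7 went the other way, at -0.35 ± 0.14, -1.32 ± 0.15 and -1.81 ± 0.16. Of the 9 differences, 8 had a two-sided exact permutation p of 0.1 (adjusted 0.113), the smallest that 3 against 3 allows, and Psmb8 over Psmb5 in AT3 against CPT had an exact permutation p of 0.9. From counts per kilobase instead of TPM, the shifts of CPT against CON were 1.26 in place of 1.57 for Psmb8 over Psmb5, 0.45 in place of 0.22 for Psmb9 over Psmb6 and -0.41 in place of -0.97 for Psmb10 over Psmb7. Those of AT3 against CON were 1.26 in place of 1.59, -0.02 in place of -0.30 and -0.84 in place of -1.46. Without CON 1 the CPT against CON shift of Psmb9 over Psmb6 was 0.13 in place of 0.22. Both parts of a ratio moved: on the TMM scale Psmb5 was lower (-0.44) and Psmb7 higher (0.68) in CPT than in CON, and Psmb6 was not called (0.13).

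**Figure D4:**
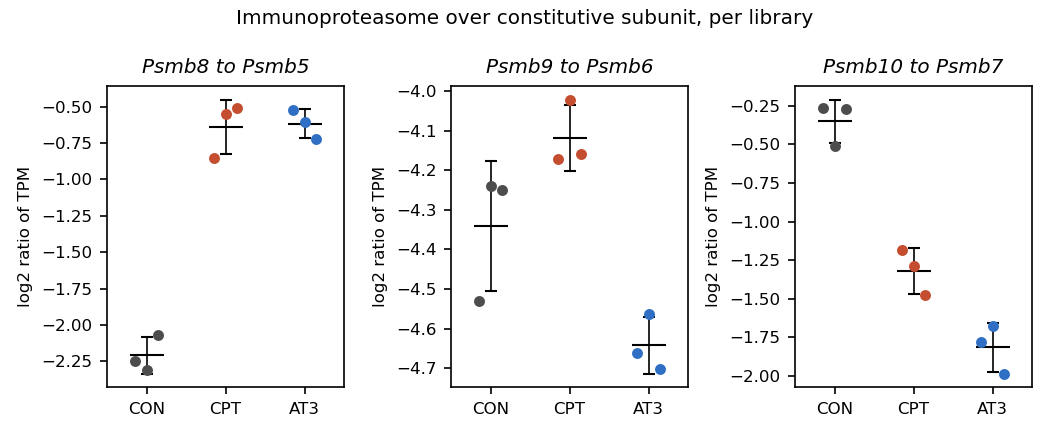
Log2 ratio of TPM of each immunoproteasome subunit to the standard subunit it replaces, per library (points) with the group mean and SD. Psmb8 over Psmb5 is near -2.21 in CON and near -0.64 in CPT, while Psmb10 over Psmb7 is lower in CPT and AT3 than in CON.

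Among the 7 class I loading and presentation genes, 4 were higher and 1 lower in CPT than in CON and 2 were higher and 1 lower in AT3 than in CON. Their median log2 fold change in AT3 against CPT was -0.12, with no call. H2-D1, a class I heavy chain, had 350.9, 373 and 374 CPM in CON, 566, 577 and 676 in CPT and 610, 575 and 638 in AT3. All injured libraries lay above CON and overlapped each other. H2-D1 was 1.66-fold higher in CPT (0.73 ± 0.10, edgeR adjusted p = 1.38e-05) and higher by the same amount in AT3 (0.73 ± 0.10, edgeR adjusted p = 1.12e-05), with 0.00 ± 0.10 between AT3 and CPT. H2-K1, the other classical heavy chain on the list, was called in no comparison (-0.09, -0.07 and -0.16), with TPM values above 0 against CON (0.28 in CPT and 0.19 in AT3). BALB/c mice carry the H2d haplotype and the C57BL/6 reference H2b, so counts of H2-D1 and H2-K1 are reads assigned to related alleles, and reads may be split among near-identical class I genes.

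B2m, the light chain common to all class I molecules, had 1903, 1736 and 2063 CPM in CON, 1336, 1307 and 1294 in CPT and 1197, 1228 and 1375 in AT3. All injured libraries lay below CON. B2m was 1.45-fold lower in CPT (-0.53 ± 0.10, edgeR adjusted p = 0.000364) and lower in AT3 (-0.59 ± 0.10, edgeR adjusted p = 0.000143) than in CON. Its TPM values against CON were 0.08 and 0.12, so its direction depends on the scale, whereas H2-D1 was higher than CON on both. Tapbp, which encodes tapasin, was higher in CPT than in CON (0.33 ± 0.09, edgeR adjusted p = 0.00704) and at 0.21 in AT3 against CON (edgeR adjusted p = 0.0629). Tapbp was called higher in AT3 than in CON by DESeq2 (0.0190), with DESeq2 size factors (0.0279), with no filter on low counts (0.0230), with only the 6 libraries compared (0.0220), without AT3 2 (0.0374), without the mitochondrially encoded and 10 most abundant genes (0.0299) and on the TPM scale (0.85, limma adjusted p = 0.000367). Tap2, the other transporter subunit, was called in no comparison (0.12, -0.23 and -0.11, the last with the opposite sign on the TPM scale, 0.44). Nlrc5, the transactivator of class I genes, was called higher in CPT at 0.37 ± 0.15 (edgeR adjusted p = 0.0418), lost without CON 1, CON 3, CPT 1 or CPT 2 (0.0851 to 0.121) or with only the 6 libraries compared (0.0521), and stood at -0.32 in AT3 against CPT and 0.05 in AT3 against CON.

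Further class I pathway genes, outside the 49, were counted from a list. Of 18 listed, 17 were tested, and H2-L was absent from the gene annotation. Of the 17, 13 were higher and 1 lower in CPT than in CON and 11 were higher and 3 lower in AT3 than in CON. Of all genes tested, 30.0% were higher and 30.8% lower in CPT than in CON. In AT3 against CON these shares were 31.5% and 32.9%. The median of the 17 in AT3 against CPT was -0.06, with no call. The chaperone Canx, the class I gene H2-Q6 and the tapasin relative Tapbpl had the smallest p-values in CPT against CON, at log2 fold changes of 1.54, 1.85 and 0.74. H2-Q10, a secreted class I molecule made by hepatocytes and the 1 lower gene, stood at -0.56. Of 53 further interferon-stimulated genes on a list, 49 were tested: 11 were higher and 22 lower in CPT than in CON, 8 were lower in AT3 than in CPT, and 7 were higher and 28 lower in AT3 than in CON. Apol9b and Apol9a, a near-identical pair of apolipoprotein L genes, were lower in CPT than in CON (-2.34 and -1.93) and lower in AT3 than in CPT (-0.79 and -0.60). Ifitm2, a restriction factor at endosomal membranes, was 2.20 higher in CPT than in CON on the log2 scale. Isg20, an exonuclease, was higher in CPT (1.16) and lower in AT3 than in CPT (-1.09, edgeR adjusted p = 0.0101).

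The chemokines Cxcl9 and Cxcl10, which attract CXCR3-bearing T and NK cells, were sparse. Cxcl9 had 1.35, 2.51 and 1.52 CPM in CON, 2.16, 2.93 and 2.46 in CPT and 1.38, 1.19 and 1.29 in AT3. AT3 lay below CPT, and CON overlapped both. Cxcl9 was 1.96-fold lower in AT3 than in CPT (-0.97 ± 0.26, edgeR adjusted p = 0.0476), a call lost without any 1 CPT or AT3 library other than CPT 3 (0.0684 to 0.175). In CPT against CON it was not called (0.46), and without CON 2 it was called higher (0.81, adjusted p 0.0205). Cxcl10, at 0.143 to 0.592 CPM, was called in no comparison (0.90, -0.94 and -0.04).

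**Figure D5:**
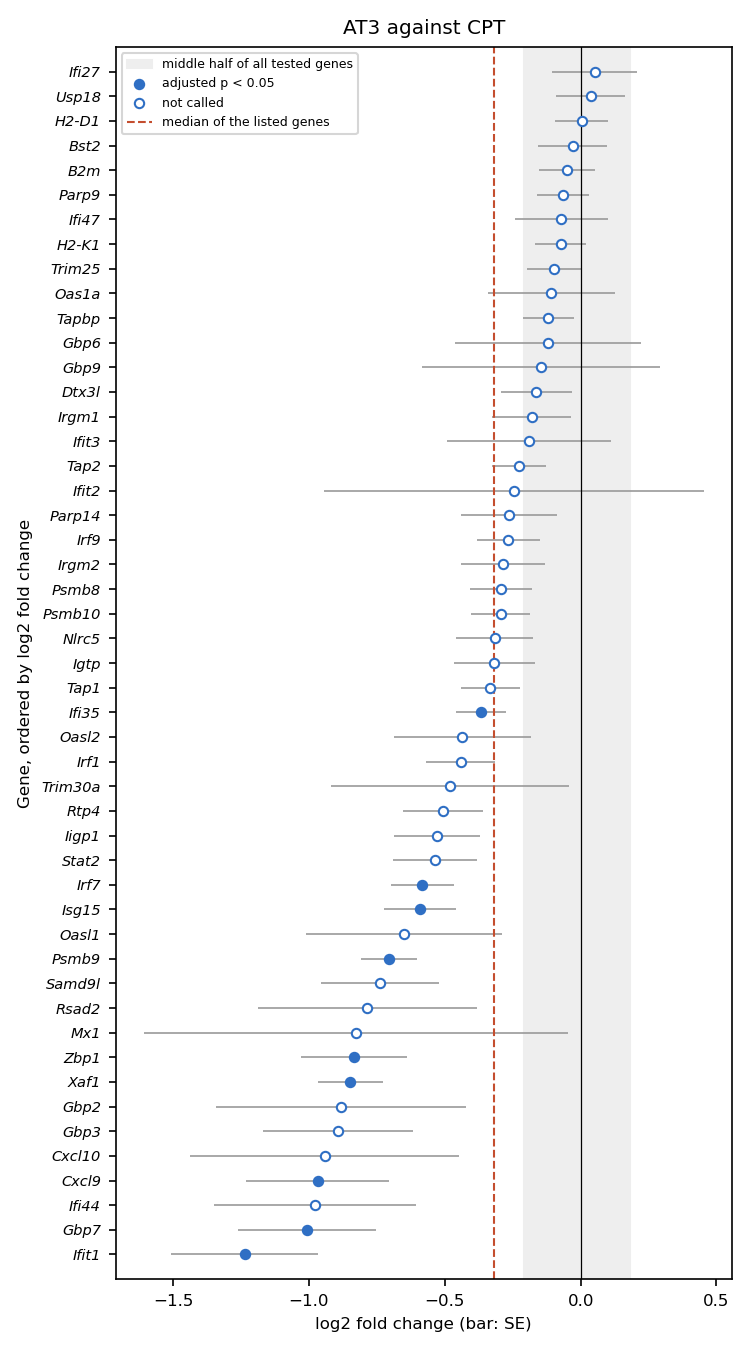
Log2 fold change with SE of each member in AT3 against CPT, ordered by size, with the called members marked. The grey band spans the middle 50% of all tested genes (-0.21 to 0.18) and the dashed line is the members' median (-0.32): 46 of 49 members lie below 0 and 9 are called.

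Without CPT 3, the library that lay within the AT3 range for Stat2, Gbp7 and Igtp, 8 members joined the 9 called in AT3 against CPT: Irf1, Stat2, Samd9l, Rtp4, Gbp3, Igtp, Iigp1 and Nlrc5. The count of all genes called in that fit also rose, to 1316 from 641, so the members' share (34.7% lower) stands beside 3.89% lower of all genes.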

How the data were processed

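Per the labels' protocols, liver RNA was isolated on columns and 9 libraries were made with a SMARTER kit for mRNA. Strandedness is not stated. The authors deposited, for each library, estimated counts per gene and, in a separate table, TPM. Of the 57010 counts of a library, zeros included, 7.96 to 9.55% are not whole. GRCm38, mm10 and GRCm39 are named without a role in the submitters' processing notes. The aligner and counter were not given in the sources used here. Of the deposited count table, 3 columns of group means were not used, 0 columns belonged to other samples and 0 rows named no gene.

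Estimated counts were rounded and tested in R 4.3.3 with edgeR 4.0.16 (filterByExpr, TMM factors, quasi-likelihood fit over all 9 libraries, Benjamini-Hochberg adjustment over 13686 genes). DESeq2 1.42.0 and limma 3.58.1 (limma-trend on log2 of TPM plus 1) were alternatives. The fit was also run on simulated counts in which a small set of genes was changed in the CPT libraries alone. That setting lacks the broad differences between groups seen here, so it does not test the fit under them. Replicates differed beyond sampling noise: the chi-square per degree of freedom within groups was 7.07 to 97.0. All 49 members are named, and from the pathway lists Ifnar1, Ifnar2, Ifngr1, Ifngr2, Jak1 and genes among the 3 with the smallest p per list and comparison; marker lists are given as counts and sums. Some listed genes are not reported here. The members and lists were chosen with earlier results of these data known. Coordinates are GENCODE M21 on GRCm38, matched by gene ID. Upstream sequence is RefSeq's on GRCm38.p6.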

Additional observations from a re-analysis of the deposited data

How the results depend on the processing

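Relative to the counts of calls above, the TPM scale moved the members most. In CPT against CON, limma-trend gave 23 higher and 5 lower with a pseudocount of 1 and with 0.1, and 3 lower without a filter. The lower shares of all genes in these runs were 11.7, 11.6 and 6.44%. In AT3 against CON it gave 14 higher and 7 lower, 15 higher with a pseudocount of 0.1, and 6 lower without a filter. There the lower shares of all genes were 12.4, 12.3 and 6.93%. In AT3 against CPT it called 0 members, and 45, 32 and 20 of all genes with a pseudocount of 1, of 0.1 and without a filter. Among members called on either scale, signs were opposite with a pseudocount of 1 (0.1 in brackets) in CPT against CON for Irf7 at 0.24 (0.26), Dtx3l 0.33 (0.48), Trim25 0.10 (0.11), Ifi47 0.0126 (0.0183) and B2m 0.0811 (0.0812), and in AT3 against CON for Irf1 0.13 (0.16), Isg15 0.33 (0.35), Bst2 0.59 (0.60), Xaf1 0.58 (0.63), Ifi35 0.27 (0.28), Trim25 0.0927 (0.11), Irgm2 0.47 (0.66), Ifi47 0.11 (0.16), Tap2 0.44 (0.52) and B2m 0.12 (0.12). No filter on low counts gave 1174 calls of all genes and 15 lower members in AT3 against CPT. Leaving out 1 library gave 172 to 1316 calls of all genes and 2 to 17 lower members in AT3 against CPT, and the difference of Psmb8 over Psmb5 in AT3 against CPT ranged from -0.0876 to 0.0825. DESeq2 called 13 higher and 14 lower members in CPT against CON, 0 and 11 in AT3 against CPT, and 9 and 19 in AT3 against CON. Of the members' calls, 14 of 28, 0 of 9 and 13 of 31 held in every alternative run. The causes of these differences were not tested.

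Deviations from the group mean correlated at -0.04 to 0.08 between libraries with the same number in different groups. With other numbers the correlations were -0.06 to 0.04. Between CPT and AT3 the same-number pairs were all positive (0.05 to 0.08) and the other pairs all negative (-0.06 to -0.02). Whether libraries with the same number share more than that number was not tested. With the replicate number as a block, 12 members were higher and 15 lower in CPT against CON, 0 and 7 in AT3 against CPT, and 8 and 21 in AT3 against CON.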
